A study of Mus musculus with 18 samples.

Results

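A pair of tandem multicopy gene clusters of the mouse genome was examined in RNA-seq of pluripotent stem cells: *Gm11758*, *Gm11757*, *Gm13871* and *Gm11756* on chromosome 4, and *Gm8300*, *Gm8332* and *Gm7104* on chromosome 12. These 7 genes, of 35773 in the count tables, were chosen for their levels across the 6 groups of these same samples, so their levels are given as a description, without a test. The data comprised 18 samples, 3 in each of 6 groups, all labelled as wild-type cells of strain 129S2/SvPasCrl. Advanced pluripotent stem cells (ASCs) were obtained from AFSCs and grown in N2B27 with activin A, BMP4, the Wnt agonist CHIR and LIF. AFSCs are primed cells grown in activin A and FGF2, ESCs are naive embryonic stem cells in 2i/LIF, EpiLCs are epiblast-like cells, EpiSCs are epiblast stem cells, and ESC-ASCs are ESCs that were converted to ASCs. The study describes its transcriptomes as coming from biological replicates, while the labels number the replicates and do not say whether they came from separate cultures, so p-values measure the spread between these samples. In the study, AFSC lines came from crosses with transgenic reporter males of mixed strain background, and different ESC lines were converted to ESC-ASCs. Which of these lines or clones the libraries stand for is not given in the sources used here.

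Tandem gene clusters arise when a stretch of DNA is duplicated next to itself, and their copies can stay nearly identical. Several such clusters, with those of *Zscan4*, *Tcstv* and *Usp17l*, are known for expression at the two-cell stage of the mouse embryo and in a small fraction of cultured ESCs that resembles this stage. The chromosome 12 cluster holds relatives of *Eif1a*, which encodes a translation initiation factor that binds the small ribosomal subunit and takes part in scanning for the start codon. RNA came from bulk cultures, in which fewer expressing cells and less RNA per cell cannot be told apart.

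On chromosome 4 (GRCm38), *Gm11758* lies at chr4:73872219-73876266, *Gm11757* at chr4:73887066-73891112, *Gm13871* at chr4:73901907-73905953 and *Gm11756* at chr4:73916728-73920760. All 4 are on the minus strand, are annotated as protein coding with 6 exons in the count tables, and follow each other at steps of 14.8 kb. On chromosome 12, *Gm8300* (chr12:87514316-87518266, plus strand, 2 exons) and *Gm8332* (chr12:88249666-88250100, minus strand, 1 exon) are annotated as protein coding. *Gm7104* (chr12:88284535-88286055, minus strand, 1 exon) is annotated as a processed pseudogene. The whole span was 48.5 kb on chromosome 4 and 772 kb on chromosome 12.

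The sequences show that the chromosome 12 genes belong to 2 families. *Gm8332* and *Gm8300* each have a coding sequence of 435 bases, as *Eif1a* does, and differ from each other at 2 of them. Each differs from *Eif1a* at 22 bases (94.9% identity) and from *Eif1ax*, the X-linked eIF1A gene, at 65 bases (85.1% identity). The first 300 coding bases are printed to show both how alike the copies are and where they depart from *Eif1a*. Capitals mark the bases that differ from *Eif1a*, and all 300 bases lie in 1 exon in each gene, at chr12:88249801-88250100 for *Gm8332* and chr12:87516897-87517196 for *Gm8300*.
Gm8332: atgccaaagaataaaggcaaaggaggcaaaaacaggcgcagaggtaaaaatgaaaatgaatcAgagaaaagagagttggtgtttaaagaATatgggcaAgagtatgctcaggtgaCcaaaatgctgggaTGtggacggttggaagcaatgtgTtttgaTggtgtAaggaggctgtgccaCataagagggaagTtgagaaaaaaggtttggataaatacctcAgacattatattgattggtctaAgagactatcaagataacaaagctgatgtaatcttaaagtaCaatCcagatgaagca
Gm8300: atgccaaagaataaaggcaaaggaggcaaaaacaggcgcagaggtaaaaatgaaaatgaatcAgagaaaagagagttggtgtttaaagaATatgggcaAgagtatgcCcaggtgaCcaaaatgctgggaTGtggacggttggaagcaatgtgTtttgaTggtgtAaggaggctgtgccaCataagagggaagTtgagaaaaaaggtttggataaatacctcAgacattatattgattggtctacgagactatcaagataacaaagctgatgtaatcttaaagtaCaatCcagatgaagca
Within these 300 bases each copy differed from *Eif1a* at 16 positions, and both differences between the copies fell here.

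*Gm7104* had no match to the eIF1A-like genes at 80% identity over 400 bases. Its best match among named protein-coding genes was *Rexo1*, which encodes an RNA exonuclease homolog, with 87.3% identity over 1463 aligned bases. A stretch of 240 bases of its exon, chr12:88284952-88285191 on the minus strand, is printed to show this resemblance, with capitals at the 24 bases that differ from *Rexo1*.
Gm7104: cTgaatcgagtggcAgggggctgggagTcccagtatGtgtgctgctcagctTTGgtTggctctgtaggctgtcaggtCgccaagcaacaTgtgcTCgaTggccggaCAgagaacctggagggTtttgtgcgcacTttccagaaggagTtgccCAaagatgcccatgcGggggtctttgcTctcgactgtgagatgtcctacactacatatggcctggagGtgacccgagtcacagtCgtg
*Gm7104* is therefore grouped with the chromosome 12 genes by position and not by sequence. It had closer matches among transcripts absent from the count tables, namely *Gm1995* (98.3% over 1444 bases), *Gm21939* (91.1%) and *Gm18983* (88.0%). Its counts may thus include fragments of these copies, which was not tested.

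The 4 chromosome 4 transcripts were nearly the same sequence. *Gm11758* and *Gm13871* had identical coding sequences of 1083 bases, and *Gm11757* differed from them at 1 base. *Gm11756* had a coding sequence of 1071 bases, with 3 differing bases and 12 fewer bases against *Gm11758*. The 12 bases stand at the start of the third exon of *Gm11758*, and the exon of *Gm11756* that corresponds to it is annotated without them. They are in capitals in the spliced stretch below, which crosses the junction into that exon (within chr4:73874818-73875419 for *Gm11758* and chr4:73919326-73919913 for *Gm11756*, minus strand).
Gm11758: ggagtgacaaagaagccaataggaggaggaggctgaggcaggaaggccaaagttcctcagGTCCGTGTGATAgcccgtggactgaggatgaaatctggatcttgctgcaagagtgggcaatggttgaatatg
Gm11756: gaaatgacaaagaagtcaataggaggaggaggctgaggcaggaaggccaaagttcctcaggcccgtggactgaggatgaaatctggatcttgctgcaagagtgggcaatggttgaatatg
Reads of these copies can rarely be told apart. Of all 100-base windows of the *Gm11758* transcript, 99.9% occurred unchanged in *Gm13871*, 91.8% in *Gm11757* and 81.6% in *Gm11756*. The authors' counting entered a fragment at every place it mapped to, so the 4 counts are largely 1 measurement repeated. The share was 40.5% for *Gm8332* in *Gm8300* and 60.7% for *Gm8332* in *Gm2016*, a neighbor that was not chosen. No 100-base window of *Gm8332* or *Gm8300* occurred in *Eif1a* or *Eif1ax*, and none of *Gm7104* occurred in *Rexo1*.

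RefSeq promoters (GRCm38.p6) were at hand for the 4 chromosome 4 genes, which moved together, and for 0 of the 3 chromosome 12 genes. The 250 bases before the starts of *Gm11757* and *Gm13871* were identical, and 218 aligned bases of *Gm11758* matched both without a difference. *Gm11756* differed from *Gm11757* at 9 of 238 aligned bases. The letters TATAAA occurred on the sense strand of all 4, at 32 bases before the RefSeq start of *Gm11758*, 64 before those of *Gm11757* and *Gm13871*, and 76 before that of *Gm11756*. The RefSeq starts of *Gm11757*, *Gm13871* and *Gm11756* differ from the gene starts of the count tables, and that of *Gm11758* does not. Before the gene starts of the count tables the letters stood at 32 bases in all 4. The reverse complement overlaps the same letters. On either strand, TATAAA was present in 12.4% of the 250-base regions of all 32851 promoters in the table. The letters TGCACAC were in 0 of the 4 and in 3.7% of all promoters. The stretch with TATAAA in capitals is printed for *Gm11758* (chr4:73876267-73876398) and for *Gm11756* (chr4:73920761-73920892), both on the minus strand.
Gm11758 promoter: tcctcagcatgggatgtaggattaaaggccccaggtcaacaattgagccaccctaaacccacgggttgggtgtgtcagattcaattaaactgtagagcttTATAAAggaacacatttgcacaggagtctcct
Gm11756 promoter: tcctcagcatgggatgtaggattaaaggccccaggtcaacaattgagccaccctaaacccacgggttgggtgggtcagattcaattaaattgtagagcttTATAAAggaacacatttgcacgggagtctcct

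Levels are normalized read counts, that is, fragment counts divided by DESeq2 size factors. Total counts per sample ran from 4961934 to 18071600, with the ESC-ASC samples at 17813619 or more and all others at 9906473 or less. Depth and the ESC-ASC group therefore cannot be told apart beyond what scaling removes. Core pluripotency markers (*Pou5f1*, *Sox2*, *Nanog*) were expressed in every group, at summed levels of 13880 to 28070. The 5 naive markers summed to between 11870 and 17560 in ASCs, ESCs and ESC-ASCs and to at most 167 in AFSCs, EpiLCs and EpiSCs. The 5 primed markers reached 1408 to 6727 in those 3 groups and at most 281 in the others. In EpiLCs this sum came mostly from *Otx2* (mean 697) and *Fgf5* (665). *Foxa2* was also higher in EpiLCs than in ASCs (23.9 and 1.76), whereas *T* (13.1 and 62.2) and *Eomes* (52.0 and 89.5) were lower. All 7 genes passed the filter of at least 10 counts in at least 3 samples, the 4 chromosome 4 genes and *Gm7104* only through the ASC samples.

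*Gm11758* reached 98.2, 86.2 and 76.8 normalized read counts in the 3 ASC samples, from 91, 83 and 70 fragments. In ESC-ASCs it stood at 2.02, 6.35 and 4.53, in EpiLCs at 3.47, 1.77 and 1.07, and in ESCs at 1.97, 2.33 and 0. No fragment was counted in any AFSC or EpiSC sample. The ASC samples were far above all others, and the ESC-ASC, EpiLC and ESC samples overlapped. The mean in ASCs was 87.1 ± 10.7 (SD, n = 3). Ratios between groups are given for pooled levels, that is, the fragments of a group over the sum of its size factors, and so can differ from ratios of the means. The pooled level in ASCs was 65.7-fold that of ESCs (95% interval 22.2 to 321, from 244 and 3 fragments). It was 42.5-fold that of EpiLCs (19.3 to 117) and 20.2-fold that of ESC-ASCs (13.4 to 31.5). Taking 3 fragments over the group as the limit that a count of 0 allows, it was at least 74.7-fold higher than in AFSCs and at least 85.5-fold higher than in EpiSCs. These intervals and limits are exact and cover counting error only.

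*Gm13871*, the copy with the same coding sequence, read 98.2, 90.3 and 80.1 in ASCs and had the same counts as *Gm11758* in every sample outside ASCs. *Gm11757* read 93.9, 75.8 and 77.9 in ASCs and 1.52, 5.86 and 3.52 in ESC-ASCs. *Gm11756*, the copy with the shorter exon, read 95, 75.8 and 61.4 in ASCs and 1.52, 2.93 and 2.01 in ESC-ASCs. By group means, all 4 had the same order of groups. The 4 counts are largely 1 measurement, so nothing was read from this agreement. For *Gm11756* the means of ESC-ASCs and EpiLCs were close, at 2.15 and 2.07. Within 1 ASC sample the lowest and highest of the 4 counts were 87 and 91, 73 and 87, and 56 and 73. Summed over the copies, the level was 336 ± 45.1 in ASCs, 14.4 ± 7.21 in ESC-ASCs, 8.38 ± 3.85 in EpiLCs and 5.34 ± 4.63 in ESCs (SD, n = 3 each). The zero in ESC replicate 3 touched this sum, since the ratio of the ASC mean to the ESC mean was 63.0 with it and 42.0 without it.

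*Gm8300*, one of the eIF1A-like genes, had 206, 156 and 179 normalized read counts in the ASC samples and 36.4, 24.9 and 22.6 in the ESC-ASC samples. It stood at 5.91, 4.66 and 4.46 in ESCs and at 9.24, 2.65 and 4.28 in EpiLCs. A single fragment was counted in the AFSC samples and 2 in the EpiSC samples. ESC-ASC samples lay between the ASC samples and all others without overlap, while ESCs and EpiLCs overlapped. The ASC mean was 180 ± 25.2. The pooled ASC level was 37.0-fold that of ESCs (20.5 to 74.6), 35.2-fold that of EpiLCs (21.1 to 63.3) and 6.44-fold that of ESC-ASCs (5.40 to 7.72). Against AFSCs the ratio was 463 with an interval of 82.7 to 18310, since the group held 1 fragment.

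*Gm8332*, its near copy some 735 kb away, had 142, 165 and 170 normalized read counts in ASCs and 30.8, 32.2 and 38.2 in ESC-ASCs. In ESCs it stood at 1.97, 9.31 and 2.23 and in EpiLCs at 2.31, 4.42 and 3.21, with 0 in all AFSC and EpiSC samples. As for *Gm8300*, the ESC-ASC samples lay between the ASC samples and all others, and ESCs and EpiLCs overlapped. The ASC mean was 159 ± 14.7. The pooled ASC level was 32.8-fold that of ESCs (18.1 to 66.1) and at least 136-fold higher than in AFSCs. Per kb of exon, *Gm8332* reached 366 ± 33.8 in ASCs, *Gm8300* 96.2 ± 13.5 and the chromosome 4 copies 59.0 to 67.6. The *Gm8332* value divides by 435 bases, against 1873 for *Gm8300*, and includes fragments shared with other copies. Its rank per kb is therefore not that of this copy alone. *Eif1a* itself stood at 503 per kb in ASCs and 682 in ESCs, where *Gm8332* stood at 10.4 ± 9.58. The count ratio of *Gm8332* to *Gm8300* was 0.691, 1.06 and 0.951 in the ASC samples and 0.847, 1.29 and 1.69 in the ESC-ASC samples, which overlapped.

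*Gm7104*, the *Rexo1*-like gene, was the lowest of the 7. It had 18.3, 20.8 and 24.1 normalized read counts in ASCs, from 17, 20 and 22 fragments. Outside ASCs it had 5 fragments in ESC-ASCs, 1 in EpiLCs, 1 in ESCs and 0 in AFSCs and EpiSCs. The ASC samples did not overlap with the rest, and at these counts no order among the rest could be read. Its ASC mean was 21.1 ± 2.91, and the pooled ASC level was 25.3-fold that of ESC-ASCs (10.3 to 80.9) and at least 18.1-fold higher than in AFSCs.

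**Figure D1:**
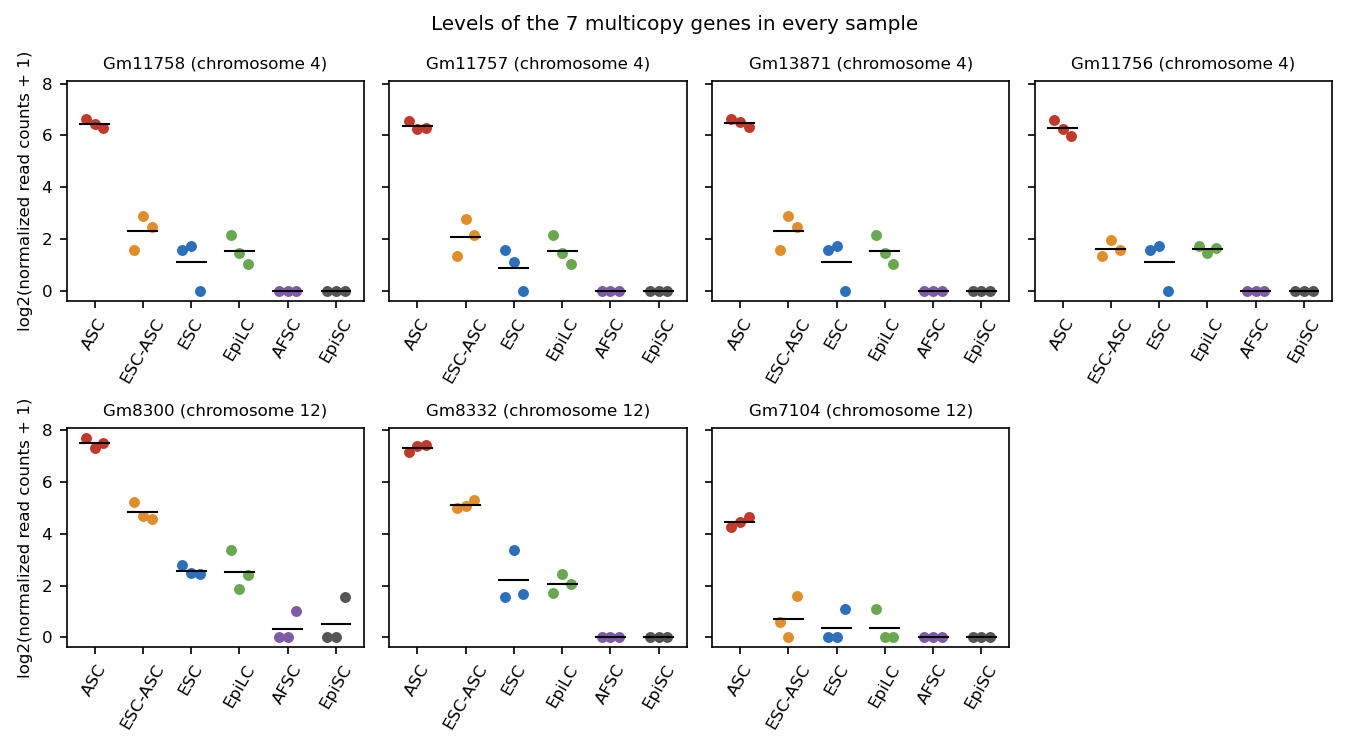
Normalized read counts of the 7 genes on a log2 scale after adding 1, by group; each point is 1 sample and each bar the mean of the 3 log2 values. The ASC samples lie highest in every panel, and only *Gm8300* and *Gm8332*, which share fragments, have all ESC-ASC samples above all ESC samples. The latter held for 37.0% of the 16901 tested genes.

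Counted over samples, all 7 genes had their 3 ASC samples above the other 15, which held for 5.49% of the 16901 tested genes. This is the pattern the genes were chosen for, so nothing was read from it. It follows from the same pattern that all 7 had the 3 ESC-ASC samples below the 3 ASC samples (32.9% of tested genes). Nothing was read from that count either. The 3 ESC-ASC samples lay above the 3 ESC samples for 2 of the 7, *Gm8300* and *Gm8332*, against 37.0% of tested genes. The other 5 genes overlapped between ESC-ASCs and ESCs.

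The share of the ASC level that was left in ESC-ASCs is given for pooled levels, as a description of copies that share fragments. *Gm8332* kept 21.2% of its ASC level (95% interval 17.9 to 25.1) and *Gm8300* 15.5% (13.0 to 18.5). The chromosome 4 genes kept 2.79% (*Gm11756*, 1.46 to 4.87) to 4.96% (*Gm11758*, 3.18 to 7.45), and *Gm7104* kept 3.95% (1.24 to 9.74). *Gm8332* stood 6.95-fold higher in ESC-ASCs than in ESCs (3.8 to 14.1), and *Gm8300* 5.75-fold (3.13 to 11.7). For *Gm11758* the same ratio was 3.26 with an interval of 1 to 16.8, and for *Gm11756* it was 1.63 (0.448 to 8.92). The interval is wide for the chromosome 4 genes because 2 or 3 fragments were counted per gene in ESCs.

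**Figure D2:**
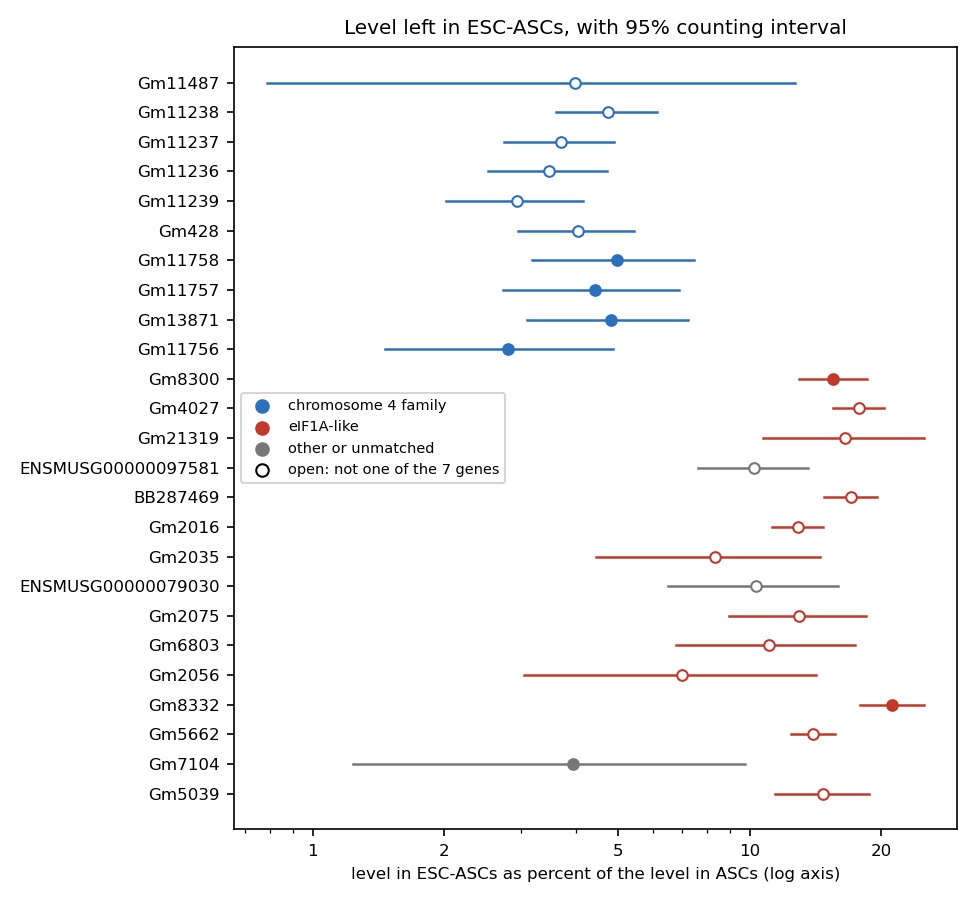
Level in ESC-ASCs as a percentage of the level in ASCs, on a log axis, from pooled levels, for the 7 genes (filled) and the other genes of the windows or of the same families nearby with at least 20 fragments in ASCs (open); lines are exact 95% counting intervals. The chromosome 4 family sits between 2.79% and 4.96% and the eIF1A-like genes between 6.99% and 21.2%.

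The chromosome 12 window held 15 further genes of the count tables. Of these, 9 matched *Gm8332* at 80% identity or more over at least 400 bases and are called eIF1A-like here. All 9 had at least 60 fragments in ASCs and at most 2 in AFSCs or EpiSCs. *Gm5662* was the most abundant, with 458 ± 41.3 normalized read counts in ASCs, 64.0 in ESC-ASCs and 15.4 in ESCs. *Gm2016* had 370 ± 29.0 in ASCs and 47.7 in ESC-ASCs, *Gm4027* 285 ± 8.03 and 50.8, and *BB287469* 278 ± 11.7 and 47.5. *Gm2075* had 52.5 ± 3.11 in ASCs and 6.81 in ESC-ASCs. The share left in ESC-ASCs had a median of 13.0% over the 9 genes and ran from 6.99% to 17.8%. *Gm8332* stood above this range at 21.2%, and *Gm8300* inside it at 15.5%. The interval of *Gm8332* overlapped with those of *Gm4027*, *BB287469*, *Gm21319* and *Gm2075*. Copies share fragments, so *Gm8332* was not set apart from its neighbors. The intervals of *Gm2056*, *Gm2035* and *Gm6803*, also eIF1A-like, overlapped with those of chromosome 4 genes and of *Gm7104*. That of *Gm2075* overlapped with that of *Gm7104*.

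Among the 6 other genes of the window, 4 had at most 10 fragments over all samples, including *Oog1*, an oocyte-expressed gene, and *Gm2042*. ENSMUSG00000097581 had 97.6 ± 35.1 normalized read counts in ASCs, and ENSMUSG00000079030 had 41.5 ± 17.2. Both IDs had no sequence in the annotation used, and 10.2% and 10.4% of their ASC level was left in ESC-ASCs. Genes with many fragments and genes with almost none thus lay side by side along the window.

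**Figure D3:**
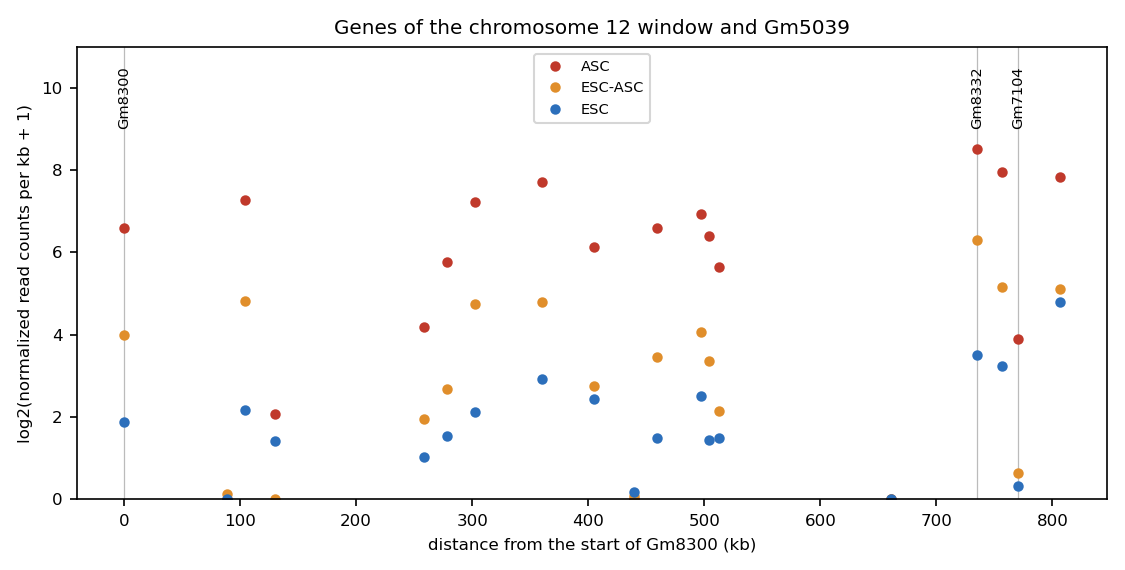
Mean normalized read counts per kb of exon (log2 after adding 1) of the genes of the chromosome 12 window and of *Gm5039*, against distance from the start of *Gm8300* in kb, for ASCs, ESC-ASCs and ESCs. Gray lines mark the 3 chosen genes, and *Gm8332* has the highest ASC level per kb, at 366, over 435 bases and with shared fragments counted in.

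The chromosome 4 genes have a second array of relatives nearby. *Gm11238*, *Gm11237*, *Gm11236*, *Gm11239* and *Gm428* lie 185 kb from the 4 genes at chr4:73607881-73687558, on the plus strand, and their transcripts were 96.9% to 97.0% identical to that of *Gm11758*. Of the 100-base windows of *Gm11758*, 9.9% to 10.8% occurred in each of them. This array was chosen by position and sequence and not for its levels. *Gm11487*, a further relative at chr4:73401032-73405072 on the minus strand, lies outside the array. It stood at 9.45 per kb in ASCs and at 0.789 in ESCs.

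In ASCs both arrays were high. Per kb and averaged over copies, the 4 chosen genes stood at 72.9, 62.1 and 56 normalized read counts in the 3 ASC samples and the 5 relatives at 172, 130 and 183. In ESCs the 4 genes stood at 1.49, 1.54 and 0, whereas the relatives stood at 21.1, 29.6 and 20.2. The relatives were thus 2.53-fold the chosen genes in ASCs by group means and 23.4-fold in ESCs. *Gm11237*, with 84 fragments in ESCs, had a pooled level 6.42-fold higher in ASCs than in ESCs (5.11 to 8.15), while the lowest interval bound among the 4 chosen genes was 19.7-fold. No test was made of this contrast, since the 4 genes were chosen with their ESC levels in view.

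In ESC-ASCs the relatives lay below ESCs. They stood at 9.33, 2.59 and 6.54 per kb and copy, below all 3 ESC samples, while the chosen genes stood at 1.34, 4.06 and 2.76 and overlapped with ESCs. Both arrays were at 0 in every AFSC and EpiSC sample. In EpiLCs the relatives read 0.874, 1.2 and 5.02, and the chosen genes 2.40, 1.34 and 1.01. EpiLC replicate 3 was thus the highest of its group for the relatives and the lowest for the chosen genes.

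**Figure D4:**
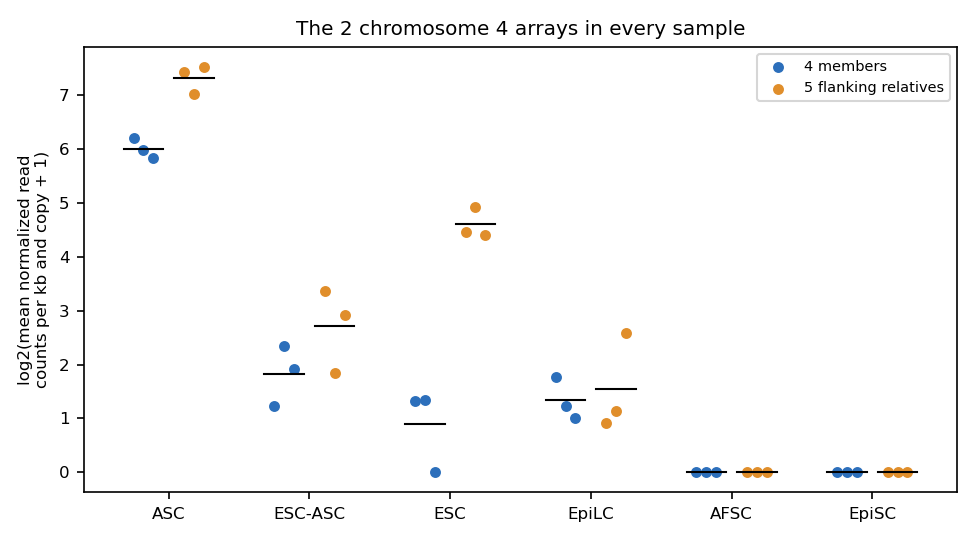
Mean normalized read counts per kb and copy (log2 after adding 1) of the 4 chosen chromosome 4 genes and of the 5 flanking relatives; points are samples and bars the mean of 3 log2 values. In ESCs the relatives lie at 20.2 to 29.6 and the chosen genes at 0 to 1.54.

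Genes within 1 Mb of either window were then tested to see how their surroundings behaved. The test was edgeR's quasi-likelihood test over all 18 samples with Benjamini-Hochberg adjustment over 16901 genes, and the 3 comparisons share the ASC samples. Of 52 flanking genes, 29 were tested. In ASCs against AFSCs, 14 rose and 10 fell, against 32.8% and 31.2% of all tested genes, with a median log2 fold change of 0.36 against 0.02 over all genes. In ASCs against ESCs, 13 rose and 5 fell (26.4% and 23.9% of all genes), with a median of 0.38 against 0.02. In ESC-ASCs against ASCs, 4 rose and 11 fell (23.0% and 27.7% of all genes), with a median of -0.33 against -0.05. *Gm11487* passed the filter only through the ASC samples, which fixed its direction. Without it, 13 rose and 10 fell against AFSCs, 12 rose and 5 fell against ESCs, and 4 rose and 10 fell in ESC-ASCs against ASCs.

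Of the 29 tested genes, 7 were sequence relatives of the chosen genes, namely the 5 of the second array, *Gm11487* and the eIF1A-like *Gm5039*. Other than *Gm11487*, all rose in ASCs against AFSCs and against ESCs and fell in ESC-ASCs against ASCs. *Gm11487* was called in the same directions, which the filter had fixed. *Gm11237* rose by a log2 fold change of 11 ± 0.75 (SE) against AFSCs, where it had no fragment, and *Gm11238* by 10.90 ± 0.77 (edgeR, adjusted p = 6.02e-09 and 9.08e-09). *Gm11487* had 12.5 ± 2.27 normalized read counts in ASCs, 1.04 ± 0.990 in ESCs and 0.498 ± 0.503 in ESC-ASCs. *Gm11239* and *Gm11236* fell by 5.06 ± 0.39 and 4.82 ± 0.37 on the log2 scale in ESC-ASCs against ASCs (edgeR, adjusted p = 7.78e-08 and 7.38e-08). Their fold changes against AFSCs rest on a group at 0 and so depend on the prior count.

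Without these 7 relatives, 22 flanking genes remained, and the calls were near balance. In this alternative, added after seeing the data, 7 rose and 10 fell in ASCs against AFSCs, 6 rose and 5 fell against ESCs, and 4 rose and 4 fell in ESC-ASCs against ASCs. *Rasef*, a small GTPase of the Rab family, fell by 2.16 ± 0.41 on the log2 scale against AFSCs, and *Gm26764* by 1.88 ± 0.36 (edgeR, adjusted p = 0.000149 and 0.00015). *Tmem63c*, a transmembrane protein gene, rose by 3.29 ± 0.64 against ESCs, whereas *Ism2* fell by 1.43 ± 0.20 and *Ahsa1*, an HSP90 co-chaperone, by 0.80 ± 0.14 (edgeR, adjusted p = 0.000356, 1.17e-05 and 0.000103). In ESC-ASCs against ASCs, *Kdm4c*, a histone demethylase, rose by 1.34 ± 0.10 and *Cipc*, a regulator of the circadian clock, by 1.15 ± 0.13 (edgeR, adjusted p = 3.26e-09 and 1.05e-06).

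The eIF1A-like copies were next set beside the genes of translation initiation. All 22 listed genes were tested, and those called in the comparison with AFSCs lay between -1.05 and 1.41 on the log2 scale. In ASCs against AFSCs 6 rose and 5 fell (32.8% and 31.2% of all genes), against ESCs 2 rose and 7 fell (26.4% and 23.9%), and in ESC-ASCs against ASCs 9 rose and 2 fell (23.0% and 27.7%), with medians of -0.05, -0.22 and 0.22 on the log2 scale. Without ESC replicate 1, 4 in place of 7 fell against ESCs. Without ASC replicate 3, EpiSC replicate 3 or any 1 ESC-ASC sample, 1 in place of 2 fell in ESC-ASCs. *Eif1a* had 1449 ± 84 normalized read counts in ASCs, 1011 ± 116 in AFSCs, 1962 ± 259 in ESCs and 1750 ± 63.9 in ESC-ASCs (SD, n = 3). It rose by 0.49 ± 0.13 (SE) on the log2 scale against AFSCs and fell by 0.46 ± 0.12 against ESCs (edgeR, adjusted p = 0.00207 and 0.00485). *Eif1a* was thus lower in ASCs than in ESCs, while *Gm8300* and *Gm8332* were higher in ASCs than in ESCs.

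*Eif1ax* rose by 1.37 ± 0.14 in ASCs against ESCs (edgeR, adjusted p = 1.91e-07), from 593 ± 25.7 to 1553 ± 163 normalized read counts. *Eif1ad*, whose product holds an eIF1A-like domain, fell by 0.50 ± 0.12 in the same comparison and by 0.73 ± 0.12 against AFSCs (edgeR, adjusted p = 0.00191 and 3.3e-05). In ESC-ASCs against ASCs the log2 fold changes were 0.28 for *Eif1a*, 0.09 for *Eif1ax* and 0.08 for *Eif1ad* (edgeR, adjusted p = 0.0663, 0.578 and 0.58). *Eif2s2* and *Eif4a2* rose most against AFSCs, by 1.41 ± 0.14 and 1.39 ± 0.24, and *Eif1b* and *Eif1* fell most, with -1.05 ± 0.22 and -0.86 ± 0.15. Against ESCs, *Eif2s3x* rose by 0.69 ± 0.16, and *Eif3e* and *Eif5* fell by 0.59 ± 0.19 and 0.54 ± 0.14. In ESC-ASCs against ASCs, *Eif4a2* and *Eif4b* rose by 1.13 ± 0.24 and 0.99 ± 0.12, while *Eif5* and *Eif4g1* fell by 0.53 ± 0.14 and 0.44 ± 0.18. Adjusted p-values of these genes lay between 9.26e-08 and 0.0423 (edgeR).

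Genes known from the two-cell stage were taken as the third list. It was chosen with results of these samples known, so its direction is not independent evidence. Of 30 listed symbols 28 were found and 23 tested. Of these, 7 passed the filter only through the ASC samples, which fixed their direction: *Tcstv3*, *Usp17la*, *Zfp352*, *Tdpoz3*, *Duxf3*, *AF067061* and *B020004J07Rik*. Of the other 16, 15 rose in ASCs against AFSCs (32.8% of all genes) and 15 against ESCs (26.4%), and 15 fell in ESC-ASCs against ASCs (27.7%). Over all 23 the count was 22 in each comparison, with median log2 fold changes of 8.95, 5.93 and -3.55, which depend on the prior count where a gene had no fragment in a group. The gene that was not called was *Zfp750* in all 3 comparisons. *Gm4340* had 3357 ± 266 normalized read counts in ASCs and 482 ± 229 in ESC-ASCs, and *Zscan4d*, of a zinc finger family known for a role in telomere maintenance, 487 ± 28.6 and 32.8 ± 4.88. *Usp17ld* stood at 71.8 ± 2.56 in ASCs and *Tmem92* at 108 ± 23.5, both with no fragment in ESCs.

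At the other end, *Arg2* (arginase 2) and *Sp110* rose least, by 1.11 ± 0.43 and 2.61 ± 0.40 against AFSCs and by 1.88 ± 0.49 and 4.22 ± 0.49 against ESCs. In ESC-ASCs against ASCs, *Tcstv3* and *Duxf3*, which encodes a double homeobox factor, fell most, with log2 fold changes of -5.06 ± 0.42 and -5.03 ± 0.61, and *Usp17lc* and *Arg2* fell least, with -2.69 ± 0.30 and -2.09 ± 0.42. Adjusted p-values of the named genes ran up to 0.0307 (edgeR). *Duxf3* stood at 20.1 ± 6.42 normalized read counts in ASCs and 0.504 ± 0.503 in ESC-ASCs.

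**Figure D5:**
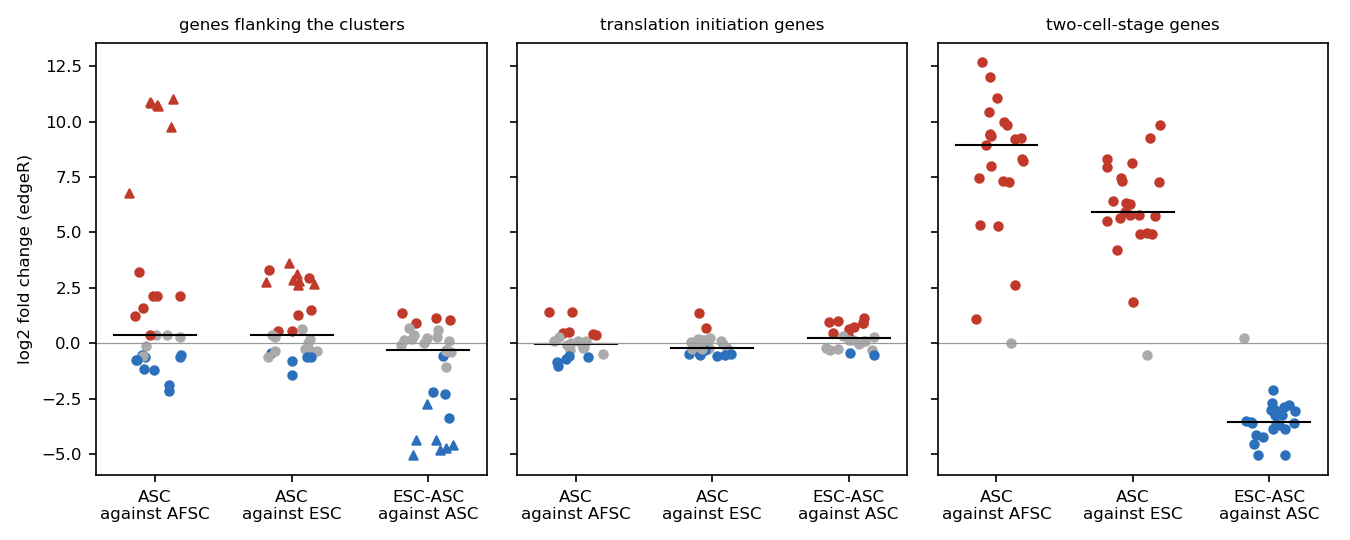
Log2 fold changes of the tested genes of the 3 lists in 3 comparisons that share the ASC samples; red rose, blue fell and gray was not called at adjusted p below 0.05 (edgeR), triangles are sequence relatives of the chosen genes and bars are medians. The medians of the two-cell-stage genes are 8.95, 5.93 and -3.55.

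Over the 18 samples, the summed levels of both clusters followed each other with a Pearson correlation of 0.94 on the log2 scale after adding 1, as a description over samples that share 6 groups. The genes of both sums were chosen for their levels in these samples, so a high correlation was built in and nothing was read from it. Among tested genes outside the windows, the 8 most like the chromosome 4 sum were *AF067061* (r = 0.97), *Lmx1a*, *Tcstv1*, *Gm20767*, *Gm7682*, *Usp17lc*, *Pramef25* and *1700020N01Rik* (r = 0.96). Of these, *AF067061*, *Tcstv1*, *Gm20767* and *Usp17lc* were also on the two-cell-stage list, which holds 23 of the 16901 tested genes. That list was chosen with results of these samples known, so nothing was read from the overlap. The 8 most like the chromosome 12 sum were *Vsig2* (r = 0.98), *Pcolce2*, *Cmklr1*, *BC080695*, *Tcstv1*, *Gm5039*, *Otud6a* and *Gm13043* (r = 0.96). *Tcstv1* was in both sets, and *Gm5039* is a sequence relative. *Vsig2* had 33.2 normalized read counts in ASCs and 19.6 in ESC-ASCs, and *Cmklr1*, a chemoattractant receptor, 193 and 101. *AF067061* had 68.2 and 2.83.

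Markers of other cell types differed between the same groups. The 4 fibroblast markers summed to 441 to 708 in ASC samples, 196 to 317 in ESCs, 203 to 345 in AFSCs and 137 to 172 in ESC-ASCs, with none of the 4 at 0 in any group. The members did not move alike. *Col1a1* stood at 370 ± 109 in ASCs, 147 ± 49.6 in ESCs and 7.63 ± 2.41 in ESC-ASCs, *Col1a2* at 30.3 ± 12.6 in ASCs, 94.8 ± 22.7 in AFSCs and 83.0 ± 18.9 in ESCs, and *Thy1* at 60.1 ± 11.9 in ASCs and 92.7 ± 8.40 in ESC-ASCs. The 3 trophoblast markers summed to 161 to 225 in ASCs, 163 to 254 in ESCs and at most 13.4 in every other group, with *Cdx2* at 116 ± 19.9 in ASCs and 0.833 ± 1.05 in ESC-ASCs. *Hand1* stood at 77.6 ± 15.5 in ASCs, 0.656 ± 1.14 in ESCs and 1.5 ± 0.887 in ESC-ASCs, and *Elf5* had at most 3 fragments in any group. The 3 primitive endoderm markers summed to 49.6 to 74.8 in ASCs, 59.1 to 74.9 in ESC-ASCs, 11.4 to 31.5 in ESCs, EpiLCs and AFSCs, and 249 to 261 in EpiSCs, where the chromosome 4 genes were at 0. Their part in the levels of the 7 genes was not tested.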

How the data were processed

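RNA-seq was analysed in 18 samples, grouped by the labels. The deposited values are raw fragment counts. To make them, the authors aligned read pairs with TopHat2 (GRCm38) and ran featureCounts 1.5.0-p1 over the Ensembl 86 exons. Fragments overlapping several genes by at least 10 bp, or mapping to several places, were counted at each, without regard to strand, so near-identical copies and genes overlapping on opposite strands share counts. Reads were not re-mapped.

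The 7 genes and all lists were chosen with earlier results of these data known. Counts were divided by DESeq2 1.42.0 size factors. Ratios of members are of pooled levels (fragments of a group over its summed size factors) and have exact conditional binomial 95% intervals, which cover counting error only, and 3 fragments over a group stand for the limit of a count of 0. Sums over copies have none, since copies share fragments. Lists were tested with edgeR 4.0.16 (R 4.3.3): TMM, robust quasi-likelihood fit of all 18 samples, a minimum of 10 counts in 3 or more samples, adjusted p below 0.05. Total counts ran from 4961934 to 18071600 per sample, so genes with a few fragments per group are imprecise.

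Named were all 7 genes, the 8 most correlated genes outside the windows per cluster, in each list and comparison the 2 largest and 2 smallest log2 fold changes among genes called, *Eif1a*, *Eif1ax* and *Eif1ad*, and the 6 most abundant other window genes. *Oog1*, *Gm2042* and ENSMUSG00000079030 were named after their values were seen. Sequences are from GENCODE M21 transcripts and RefSeq promoters of GRCm38. Relatives were found with BLAST 2.17.0 (at least 80% identity over 400 bases). Of 35773 gene IDs, 35514 had a symbol. Alternatives were TMM or total-count scaling, the highest copy in place of the sum, DESeq2 size factors or its Wald test, no filter, a replicate block and leaving out each sample.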

Additional observations from a re-analysis of the deposited data

How the results depend on the processing

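The log2 ratios of summed levels of ASCs over the other groups moved by less than 1 SD of the ratio under TMM factors, total-count scaling and the removal of any 1 sample. Taking the highest copy per sample in place of the sum kept all directions and moved 1 of the 8 ratios by more than that, ASCs over ESC-ASCs on chromosome 12, from 2.53 to 2.36. Leaving out 1 sample gave 5.39 to 6.42 for ASCs over ESCs and 4.22 to 4.96 for ASCs over ESC-ASCs on chromosome 4, and 5.05 to 5.52 and 2.46 to 2.59 on chromosome 12. Without AFSC replicate 3 or EpiSC replicate 3, which held all fragments of the chromosome 12 genes in their groups, the ratio to that group could not be computed. The chromosome 12 ratios to AFSCs and EpiSCs rest on 1 and 2 fragments.

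Counts of called genes in the 3 lists stayed within 1.5 times the reported count under another scaling, the DESeq2 Wald test, no filter and the removal of any 1 sample. Leaving out the sequence relatives, chosen after seeing the data, lowered the flanking genes called from 18 to 11 in ASCs against ESCs and from 15 to 8 in ESC-ASCs against ASCs. All 7 of these relatives had been called in both comparisons. Leaving out an ASC sample lowered the two-cell-stage genes called against AFSCs from 22 to 15 or 16, as 17 then passed the filter. Same-numbered replicates of different groups deviated together with a mean correlation of 0.092 (-0.239 to 0.511 over 45 pairs), so the numbers were not taken as pairing. With a replicate block, the calls were 24, 18 and 18 of 29 flanking genes, 11, 9 and 12 of 22 initiation genes and 22, 23 and 22 of 23 two-cell-stage genes. Depth limits *Gm7104*, with 1 fragment in ESCs, and the chromosome 4 genes, with 2 or 3 each.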
